A study of Homo sapiens with 12 samples.

Results

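The genes of the proteasome were followed through a genome-wide CRISPR knockout screen for lapatinib response in OE19 and N87 cells. Members were all genes of the sgRNA count table named PSMA, PSMB, PSMC or PSMD with a number, which gave 39 of 20915 gene names. Each member had 6 sgRNAs, 234 of the 123411 entries in the table. By textbook role, 31 members are subunits of the constitutive proteasome, and these are called subunit genes here. They comprise 7 core alpha genes (PSMA1 to PSMA7), 7 core beta genes (PSMB1 to PSMB7), 6 ATPases (PSMC1 to PSMC6), 3 other subunits of the base (PSMD1, PSMD2 and PSMD4) and 8 lid genes (PSMD3, PSMD6, PSMD7, PSMD8, PSMD11, PSMD12, PSMD13 and PSMD14). The other 8 members are 3 assembly chaperones of the base (PSMD5, PSMD9 and PSMD10), 3 immunoproteasome genes (PSMB8, PSMB9 and PSMB10) and 2 tissue-restricted genes (PSMA8 and PSMB11).

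The proteasome degrades proteins that carry ubiquitin chains. Its barrel-shaped core has outer rings of alpha subunits, which gate the entrance, and inner rings of beta subunits, of which PSMB5, PSMB6 and PSMB7 cut peptide bonds. A regulatory particle caps the core. The ATPases of its base unfold substrates, and the lid holds PSMD14, the enzyme that removes ubiquitin. In cells exposed to interferon, PSMB8, PSMB9 and PSMB10 can replace the constitutive catalytic subunits, PSMA8 is a testis alpha subunit, and PSMB11 is the catalytic subunit of the thymus. Proteasome function is needed by dividing cells in general, and proteasome inhibitors are used as cancer drugs.

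OE19, from a cancer of the gastric cardia, and N87, from a gastric cancer metastasis, both with amplified HER2, carried the GeCKO V2 library, in which Cas9 and the sgRNA come from 1 lentiviral vector. All cells had been infected at a multiplicity of about 0.3 and kept in puromycin for 7 days, at a higher concentration for OE19 than for N87. Cells were then collected after 14 days with lapatinib, which blocks the kinase domains of HER2 and EGFR (1 µM for OE19, 0.5 µM for N87), after 14 days with DMSO vehicle, or directly as baseline. Each of the 6 conditions had 2 libraries, described as separate infections. The p-value of an sgRNA rests on the spread between 2 libraries per group. That of a gene rests on how its sgRNAs rank among all sgRNAs. The sgRNAs of a gene share these libraries and are not replicates of a condition. No plasmid pool was analysed here, so losses before baseline were not measured.

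The 12 libraries held 13105805 to 33743599 counts. The median count of an sgRNA was 57 to 238 over all entries and 41.5 to 168.5 over member sgRNAs, lowest in OE19 lapatinib replicate 1 for all entries and in N87 lapatinib replicate 1 for members. Member sgRNAs took 0.116% to 0.168% of the counts. Per library, 0 to 11 of the 234 member sgRNAs had a count of 0, the most in N87 lapatinib replicate 1.

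The level of an sgRNA is given as log2(normalized count + 1) minus the median of its library, so that 0 is the middle sgRNA of that library. The normalized count is the count divided by a median-of-ratios size factor. The level of a gene is the median over its sgRNAs, and that of a group is the median over all its sgRNAs. These levels also carry the share of each sgRNA in the starting pool.

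sgRNAs of subunit genes were already below the middle of the library at baseline. Their group level was -0.42 and -0.24 in the OE19 baseline libraries and -0.59 and -0.89 in the N87 baseline libraries. The sgRNAs of the 8 other members were at -0.11 and -0.16 in OE19 and at -0.15 and -0.13 in N87, and control guides, which target no gene, were at 0.02 and -0.03 in OE19 and at 0.02 and 0.07 in N87. In OE19, 23 of 31 subunit genes lay below the library median in both baseline libraries, and in N87 27 of 31 did. Over all genes this share was 46.5% in OE19 and 46.3% in N87, and among the other members it was 4 of 8 genes in each line.

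**Figure D1:**
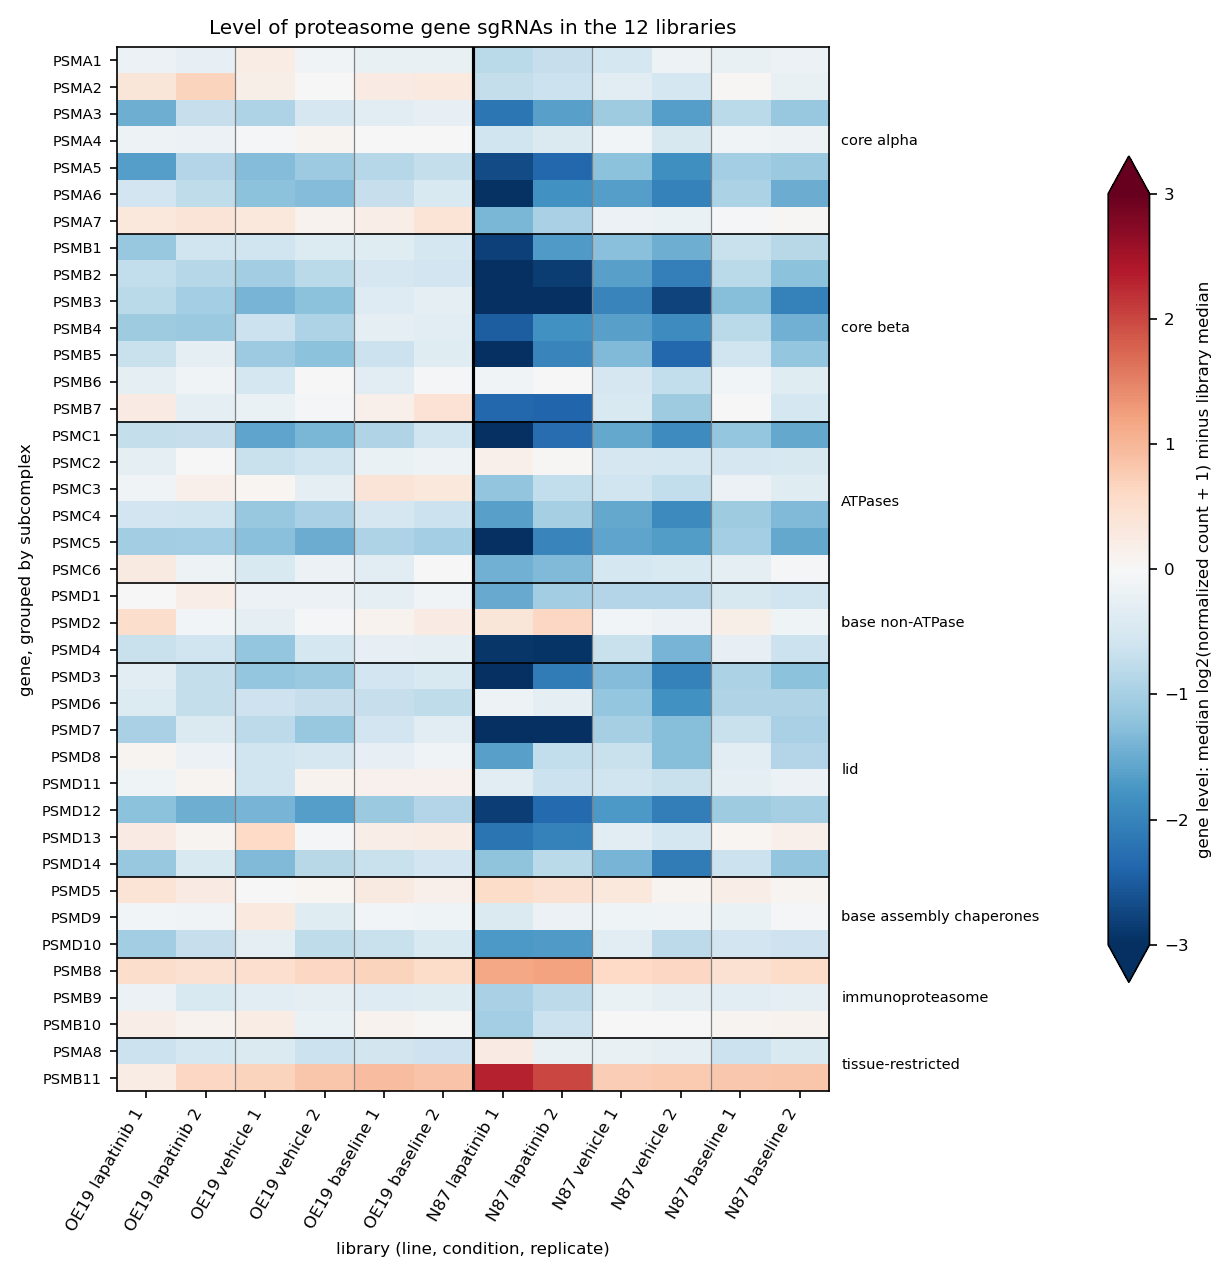
Heat map of gene levels (median over sgRNAs of log2 normalized count + 1, minus the library median) for the 39 members in the 12 libraries, with genes in rows by subcomplex and libraries in columns by line, condition and replicate. Blue is below the library median: by group level the subunit genes are lower in N87 than in OE19 in each condition, and in N87 lapatinib libraries the core beta sgRNAs are lowest (-2.98 and -2.22) while PSMB6, PSMC2, PSMD2, PSMD6 and PSMD14 are less blue than with vehicle.

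After 14 days with vehicle the level of subunit sgRNAs was lower than at baseline in both lines. It was -0.85 and -0.76 in OE19 vehicle libraries, against -0.42 and -0.24 in OE19 baseline libraries, and -0.92 and -1.42 in N87 vehicle libraries, against -0.59 and -0.89 in N87 baseline libraries. Vehicle and baseline libraries did not overlap in either line, by a narrow margin in N87, where vehicle replicate 1 and baseline replicate 2 were close. The other members had -0.04 and -0.24 with vehicle in OE19 and 0.01 and -0.08 with vehicle in N87, which overlapped baseline in OE19 and not in N87.

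Changes were then tested per sgRNA with edgeR and combined per gene. The value of a gene is the median over its sgRNAs of the log2 fold change, given with the SD over sgRNAs. Its p comes from robust rank aggregation, which asks whether more of its sgRNAs than chance gives are near the extreme end of all sgRNAs, and counts only sgRNAs among the most extreme 5%. A gene was called lower or higher where its Benjamini-Hochberg adjusted p over all tested genes was under 0.05.

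With vehicle against baseline, 4 of 39 members were called lower in N87 and 1 of 39 in OE19. Of all genes tested, 2.34% were called lower in N87 and 1.53% in OE19. At an unadjusted p under 0.05 the test gave 20 of 39 members lower in N87, against 7.07% of all genes, and 13 of 39 lower in OE19, against 6.99% of all genes. No member was called higher, with 1 of 39 in N87 and 0 of 39 in OE19 at an unadjusted p under 0.05. With DESeq2 p-values in the same aggregation, 4 members were called lower in N87, 0 in OE19, and 0 higher in either line. The 4 were PSMB2, PSMB5, PSMC3 and PSMD12, which is not the same set as with edgeR.

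The directions were broader than the calls. The median log2 fold change was below 0 for 30 of 31 subunit genes in OE19 and for 31 of 31 in N87, so that 30 of 31 were below 0 in both lines. Of all genes, 25.7% were below 0 in both lines, and of the 8 other members 1 was, the assembly chaperone PSMD5 (-0.18 in OE19 and -0.01 in N87). Against the median of all genes instead of 0, 31 of 31 subunit genes were lower in each line. The count was the same under each of 4 scalings, but these shift all genes nearly alike and so cannot test it. The exception against 0 was PSMD6, a lid subunit, with 0.01 ± 0.28 in OE19 and -0.43 ± 0.36 in N87 (SD over 6 sgRNAs).

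On the level scale, 22 of 31 subunit genes in OE19 and 22 of 31 in N87 had both vehicle libraries below both baseline libraries. Over all genes, 21.7% were placed this way in OE19 and 19.1% in N87, and of the other members 2 of 8 were in each line. Among single sgRNAs of subunit genes, 148 of 185 in OE19 and 166 of 185 in N87 had a log2 fold change below 0, against 48.6% and 47.2% of all sgRNAs in OE19 and N87. For control guides these shares were 15.1% in OE19 and 27.5% in N87. The sgRNAs of the other members were below 0 in 22 of 48 cases in OE19 and in 16 of 48 in N87.

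**Figure D2:**
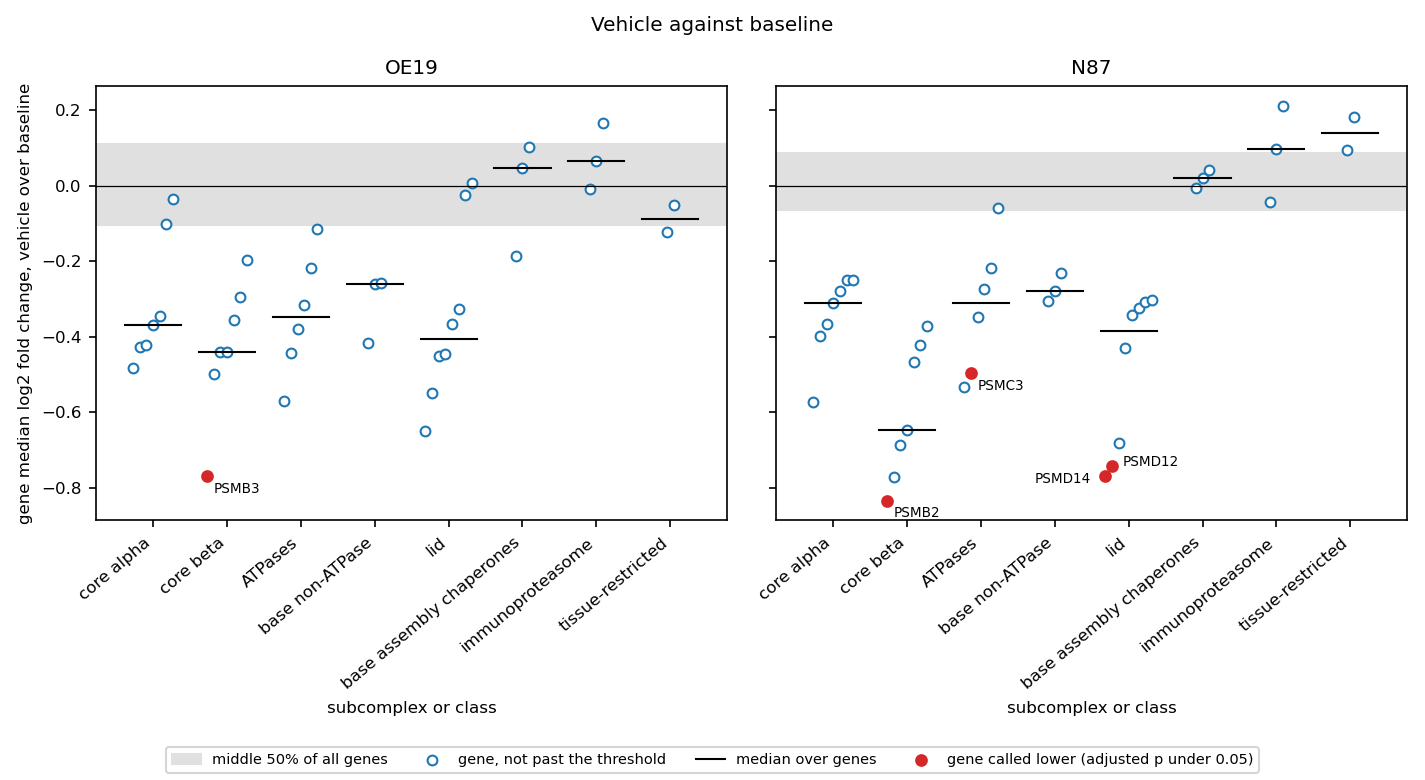
Median log2 fold change over sgRNAs, vehicle against baseline, for each of the 39 members by subcomplex, OE19 on the left and N87 on the right. Red points were called lower, black bars are medians of a subcomplex and the grey band holds the middle 50% of all genes: core beta has the lowest subcomplex median in both lines, and the chaperones and immunoproteasome genes lie around 0.

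By subcomplex, the core beta genes had the lowest medians in both lines. Core beta stood at -0.44 in OE19 and -0.65 in N87, and the lid at -0.41 in OE19 and -0.39 in N87. Core alpha was at -0.37 in OE19 and -0.31 in N87, the ATPases at -0.35 in OE19 and -0.31 in N87, and the other base subunits at -0.26 in OE19 and -0.28 in N87. The median over all subunit genes was -0.37 in OE19, with a range of -0.77 to 0.01, and -0.36 in N87, with a range of -0.83 to -0.06. The N87 median was -0.63 without N87 vehicle replicate 1. In N87, 14 of 31 subunit genes were among the lowest 5% of all gene medians, 6 of them core beta genes, and in OE19 7 of 31 were.

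The assembly chaperones, the immunoproteasome genes and the tissue-restricted genes had medians near 0. The chaperones had a median of 0.05 in OE19 and 0.02 in N87, the immunoproteasome genes 0.07 in OE19 and 0.10 in N87, and the tissue-restricted genes -0.09 in OE19 and 0.14 in N87. None of these 8 genes was called by edgeR or with DESeq2 p-values, in either direction.

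The lowest gene in N87 was PSMB2, a core beta subunit without a catalytic site. The median normalized count of its sgRNAs was 46.3 and 34.2 in N87 vehicle libraries, against 84.2 and 61.8 in N87 baseline libraries. Vehicle and baseline did not overlap. Where normalized counts are printed, overlap is judged on these counts, and the level scale can differ where values are close. The fold change was -0.83 ± 0.22 (log2, SD over 6 sgRNAs), with an adjusted p of 0.000659 and 6 of 6 sgRNAs below 0. In OE19 the same gene had 70.4 and 81.7 with vehicle, against 102 and 99.3 at baseline, a fold change of -0.50 ± 0.58 that was not called (adjusted p = 1).

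In N87 the lid genes PSMD14 and PSMD12 fell as well. PSMD14, the deubiquitinase of the lid, had 55.6 and 35.0 normalized counts with vehicle in N87, against 93.1 and 65.9 at baseline, without overlap. Its fold change was -0.77 ± 0.41 (adjusted p = 0.0173), with 6 of 6 sgRNAs below 0. PSMD12, a scaffold subunit of the lid, had 43.2 and 33.8 with vehicle in N87, against 68.6 and 72.2 at baseline, with a fold change of -0.74 ± 0.35 (adjusted p = 0.0131) and 5 of 6 sgRNAs below 0. Here too the 2 vehicle libraries were both below the 2 baseline libraries. In OE19, PSMD12 had 54.9 and 45.4 with vehicle, against 67.0 and 80.4 at baseline, again without overlap. Its fold change of -0.65 ± 0.16 was not called (adjusted p = 1) although 6 of 6 sgRNAs were below 0. With a rank limit of 0.25, PSMD12 was called lower in OE19 (adjusted p = 0.0164).

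PSMC3, an ATPase of the base, was the fourth gene called in N87. It had 95.8 and 90.1 normalized counts with vehicle, against 128 and 115 at baseline, without overlap, and a fold change of -0.50 ± 0.45 (adjusted p = 0.0177) with 6 of 6 sgRNAs below 0. In OE19 it had 159 and 127 with vehicle, against 192 and 186 at baseline, and a fold change of -0.44 ± 0.34 (adjusted p = 1). The ATPase with the smallest change in N87 was PSMC2, at -0.06 ± 0.16, which had -0.32 ± 0.38 in OE19.

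The calls in N87 depended on single libraries. Without N87 vehicle replicate 2 no member was called lower, without N87 baseline replicate 1 only PSMD12 was, without N87 vehicle replicate 1 4 were (PSMB3, PSMB5, PSMB6 and PSMD14), and without N87 baseline replicate 2 10 were, so that none of the 4 genes was called under every omission. With the TMM factors taken from control guides, 2 members were called in N87, PSMB2 and PSMD12. PSMD14 was also not called with total counts or with DESeq2 p-values.

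PSMB3, a core beta subunit without a catalytic site, was the gene called in OE19. Its median normalized count was 54.9 and 61.3 with vehicle, against 112 and 121 at baseline, without overlap. The fold change was -0.77 ± 0.53 (adjusted p = 0.0459), with 5 of 6 sgRNAs below 0. The call was lost without OE19 baseline replicate 2 (adjusted p = 0.0838), without OE19 vehicle replicate 1 (0.0626), without OE19 vehicle replicate 2 (0.173) and with DESeq2 p-values (0.0655). In N87 the same gene had 36.3 and 20.4 with vehicle, against 59.7 and 35.2 at baseline, where vehicle replicate 1 overlapped baseline. Its fold change there was -0.77 ± 0.23 (adjusted p = 0.656) with 6 of 6 sgRNAs below 0. With a rank limit of 0.25, PSMB3 was called lower in N87 (adjusted p = 0.00802).

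PSMB3 lies at chr17:36908994-36920478 and the lid gene PSMD3 at chr17:38137060-38154212 (GRCh37), 924 kb and 250.4 kb from ERBB2, the gene of HER2. PSMD3 had 64.9 and 67.0 normalized counts with vehicle in OE19, against 98.4 and 107 at baseline, and 58.3 and 35.9 with vehicle in N87, against 75.3 and 61.8 at baseline. Vehicle was below baseline without overlap in both lines, and the fold changes of -0.45 ± 0.30 in OE19 and -0.34 ± 0.30 in N87 were not called (adjusted p = 0.408 and 1). Copy number was not analysed here, and whether it moved with these counts was not tested.

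Among the catalytic subunits, PSMB5, which carries the chymotrypsin-like site, was nearest to a call. It had 75.2 and 65.8 normalized counts with vehicle in OE19, against 97.1 and 114 at baseline, and 59.5 and 31.3 with vehicle in N87, against 96.8 and 69.1 at baseline. The groups did not overlap in either line. The fold change was -0.44 ± 0.48 (adjusted p = 0.240) in OE19 and -0.69 ± 0.29 (adjusted p = 0.0517) in N87, and DESeq2 p-values gave a call in N87.

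PSMB7, which carries the trypsin-like site, had 126 and 139 with vehicle in OE19, against 163 and 200.2 at baseline, and 106 and 72.2 with vehicle in N87, against 145 and 101 at baseline. Vehicle and baseline overlapped in N87, where vehicle replicate 1 was above baseline replicate 2, and not in OE19. The fold changes were -0.44 ± 0.35 in OE19 and -0.47 ± 0.12 in N87, with adjusted p of 1 and 0.128 and 6 of 6 sgRNAs below 0 in each line. With a rank limit of 0.25, PSMB7 was called lower in both lines (adjusted p = 0.0422 in OE19 and 0.0182 in N87). PSMB6, which carries the caspase-like site, had 104 and 148 with vehicle in OE19, against 117 and 142 at baseline, which overlapped. In N87 it had 107 and 88.9 with vehicle, against 140.0 and 116 at baseline, without overlap, and a fold change of -0.42 ± 0.56 (adjusted p = 0.0677).

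The immunoproteasome counterparts showed no call with vehicle. PSMB8, the counterpart of PSMB5, had 222 and 233 with vehicle in OE19, against 242 and 223 at baseline, and 229 and 234 with vehicle in N87, against 209.8 and 229 at baseline. PSMB9, the counterpart of PSMB6, had 115 and 119.7 with vehicle in OE19, against 112 and 116 at baseline, and 126 and 121 with vehicle in N87, against 117 and 119 at baseline. PSMB10, the counterpart of PSMB7, had 170.3 and 125 with vehicle in OE19, against 157 and 151 at baseline, and 146 and 143 with vehicle in N87, against 156 and 157 at baseline. By these counts vehicle and baseline overlapped in OE19 for all 3 genes. By level PSMB9 was higher with vehicle in OE19 without overlap, at -0.330 and -0.266, against -0.378 and -0.356 at baseline. In N87 vehicle was above baseline for PSMB8 and PSMB9 and below it for PSMB10, each by a narrow margin without overlap. The fold changes lay between -0.04 and 0.21 over the 3 genes and both lines, with adjusted p of 0.965 to 1.

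**Figure D3:**
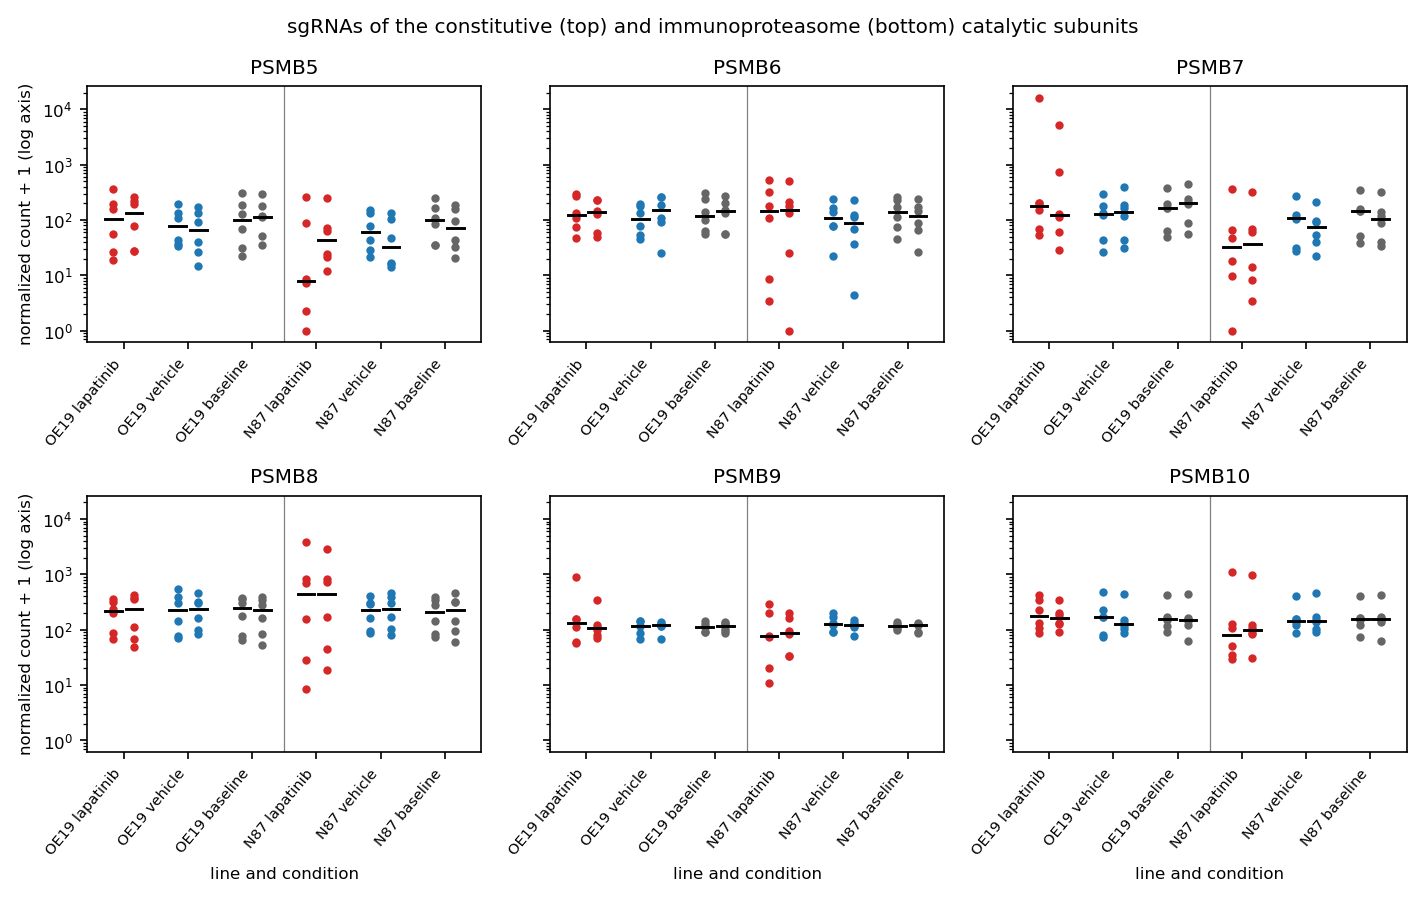
Normalized count + 1 (log axis) of each of the 6 sgRNAs of PSMB5, PSMB6 and PSMB7 in the upper row and of PSMB8, PSMB9 and PSMB10 in the lower row, by line and condition, replicate 1 on the left and replicate 2 on the right within a condition. Bars are medians over sgRNAs: PSMB5 is at 6.80 and 42.0 in N87 lapatinib libraries, and PSMB8 is at 433 and 448 there, while single sgRNAs of one gene scatter far apart with lapatinib in N87.

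PSMA7 and its testis counterpart PSMA8 form a similar pair among the alpha subunits. PSMA7 had 182 and 154 with vehicle in OE19, against 172 and 203 at baseline, and 129.7 and 131 with vehicle in N87, against 141 and 151 at baseline. The groups overlapped in OE19 and not in N87, and the fold changes were -0.34 ± 0.63 (adjusted p = 0.167) in OE19 and -0.40 ± 0.48 (adjusted p = 0.149) in N87. PSMA8 had 107 and 92.5 with vehicle in OE19, against 100.1 and 96.3 at baseline, and 126 and 120.1 with vehicle in N87, against 93.1 and 106 at baseline. It overlapped in OE19 and was higher with vehicle in N87, with fold changes of -0.05 ± 0.24 in OE19 and 0.18 ± 0.23 in N87 (adjusted p = 1 each).

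The 6 sgRNAs of a subunit gene did not move as one. The median SD over sgRNAs of one gene was 0.42 in OE19 and 0.33 in N87 for subunit genes, against 0.28 in OE19 and 0.20 in N87 for all genes. Tested one by one, 3 member sgRNAs were called lower in OE19, where 0.893% of all sgRNAs were, and 0 in N87, where 0.0399% were. The 3 sgRNAs target PSMA6 (log2 fold change -1.37, adjusted p = 0.0337), PSMB3 (-1.19, adjusted p = 0.0496) and PSMC4 (-1.90, adjusted p = 0.0368). With the TMM factors from control guides the count in OE19 was 27, where 2.75% of all sgRNAs were called lower.

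The sgRNAs with the largest folds down in OE19 targeted PSMD14, PSMA3 and PSMC4. The PSMD14 sgRNA had 2.95 and 7.94 normalized counts with vehicle, against 26.1 and 23.5 at baseline, a log2 fold change of -2.27 that was not called (adjusted p = 0.168). The PSMA3 sgRNA was 3.95-fold lower (adjusted p = 0.0629), and the PSMC4 sgRNA had 17.7 and 18.2 with vehicle, against 67.9 and 65.3 at baseline, 3.57-fold lower. In N87 the largest folds down were 2.64 for an sgRNA of PSMB6, 2.51 for 1 of PSMC3 and 2.44 for the PSMA6 sgRNA called in OE19. The largest folds up were 1.56 in OE19 (PSMB2) and 1.43 in N87 (PSMA8), neither called.

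The change over 14 days with vehicle was compared between the lines. Over the 31 subunit genes, the OE19 and N87 values had a Pearson r of 0.277 and a Spearman rho of 0.247, and over all 39 members 0.621 and 0.554. Over 184 subunit sgRNAs tested in both lines r was 0.450 and rho 0.475, and over the 48 sgRNAs of the other members r was -0.04 and rho 0.199. These are descriptions across genes or sgRNAs, which share guide sequence and starting pool between the lines and are not independent replicates. In the test of the difference between the lines (OE19 minus N87), no member was called, where 0.191% of all genes were called lower and 0.0383% higher. At an unadjusted p under 0.05, 1 of 39 members was lower and 2 of 39 higher, against 5.389% and 5.202% of all genes, the lowest adjusted p was 0.757, and DESeq2 p-values gave 0 members. The median difference over subunit genes was 0.09, against -0.01 over all genes, and lay on the other side of 0 without N87 vehicle replicate 2 (-0.04) and with control-guide factors (-0.0073), with PSMD6 the highest at 0.54 ± 0.33 (adjusted p = 0.797).

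Other genes of the pathway were called with vehicle as well, none of them higher. Over all genes, 2.34% were called lower in N87 and 1.53% in OE19. Whether these pathway calls hold when 1 library is left out is not shown here. Of the 5 core assembly factors, 3 fell in N87 (PSMG1 by 0.71, PSMG2 by 0.58 and PSMG3 by 0.79 on the log2 scale, with adjusted p of 0.00212, 0.00563 and 0.000346) and 1 in OE19 (PSMG4 by 0.71, adjusted p = 0.0335). Of the 8 genes that deliver ubiquitinated proteins, 1 fell in OE19 (NPLOC4 by 0.51, adjusted p = 0.0485) and 2 in N87 (NPLOC4 by 0.71, adjusted p = 0.0271, and UFD1L by 0.51, adjusted p = 0.00853). Of 5 genes of ubiquitin supply, UBA1, the main ubiquitin-activating enzyme, fell by 0.60 in N87 (adjusted p = 0.0426) and had -0.61 in OE19 (adjusted p = 0.165). None of 5 activators and inhibitor, 5 other subunits and bound enzymes, 3 genes that control subunit expression and the base assembly factor PAAF1 was called in either line.

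With lapatinib against baseline, no member was called by edgeR or with DESeq2 p-values in either line. Of all genes, 0.129% were called lower and 0.124% higher in OE19, and 0.134% lower in N87. At an unadjusted p under 0.05, 4 of 39 members were lower and 2 higher in OE19, against 5.69% and 5.35% of all genes, and 2 lower and 2 higher in N87, against 5.23% and 5.13% of all genes. The median over subunit genes was -0.08 in OE19, against -0.02 over all genes, and -1.14 in N87, against -0.10 over all genes. The N87 median was -1.57 without N87 lapatinib replicate 2. By level, both N87 lapatinib libraries were below both baseline libraries for 24 of 31 subunit genes, against 43.5% of all genes. They were above for 3 of 31, against 39.5% of all genes. In OE19 the subcomplex medians were -0.42 for core beta, -0.23 for core alpha, -0.05 for the lid, 0.03 for the ATPases and 0.12 for the other base subunits.

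Lapatinib was then set against vehicle. This comparison shares its lapatinib libraries with lapatinib against baseline and its vehicle libraries with vehicle against baseline. The level of subunit sgRNAs was -0.49 and -0.45 in OE19 lapatinib libraries, against -0.85 and -0.76 in OE19 vehicle libraries. It was -1.88 and -1.39 in N87 lapatinib libraries, against -0.92 and -1.42 in N87 vehicle libraries. Lapatinib lay above vehicle without overlap in OE19, and in N87 the groups overlapped, since lapatinib replicate 2 was close to vehicle replicate 2. Control guides were at 0.17 and 0.06 with lapatinib, against 0.24 and 0.18 with vehicle, in OE19, and at 0.53 and 0.41 with lapatinib, against 0.10 and 0.16 with vehicle, in N87.

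No member was called in the gene test of lapatinib against vehicle. In OE19 3 of 39 members had an unadjusted p under 0.05 toward higher and 0 toward lower, against 5.47% of all genes toward higher and 5.37% toward lower. Of all genes 0.0957% were called higher, and the lowest adjusted p of a member was 0.678. In N87 3 of 39 had an unadjusted p under 0.05 toward higher and 0 toward lower, against 5.08% of all genes toward higher and 5.18% toward lower. Of all genes 0.0144% were called lower, and the lowest adjusted p of a member was 0.713. DESeq2 p-values gave 0 members in both lines.

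In OE19 most subunit genes had values above 0 with lapatinib against vehicle. Their median was 0.23, against -0.02 over all genes, and 6 of 31 were below 0, against 53.1% of all genes. The ATPases had the highest subcomplex median, 0.40, followed by the other base subunits with 0.23, core beta with 0.18, the lid with 0.14 and core alpha with 0.08. By level, both lapatinib libraries were above both vehicle libraries for 12 of 31 subunit genes, 5 of them among the 6 ATPases, against 23.7% of all genes, and below for 4 of 31, against 25.6% of all genes. The highest member was PSMD3, with 121 and 89.2 normalized counts with lapatinib, against 64.9 and 67.0 with vehicle, and a fold change of 0.94 ± 0.56 (adjusted p = 1). PSMB5 had 105 and 133 with lapatinib, against 75.2 and 65.8 with vehicle, and PSMB3 had 84.0 and 71.4, against 54.9 and 61.3, both above vehicle without overlap, at fold changes of 0.41 ± 0.69 and 0.32 ± 0.22. With total counts in place of TMM factors the median over all genes moved to -0.46 and that over subunit genes to -0.22, so the sign turned while the difference from all genes was 0.24, against 0.25 with TMM.

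**Figure D4:**
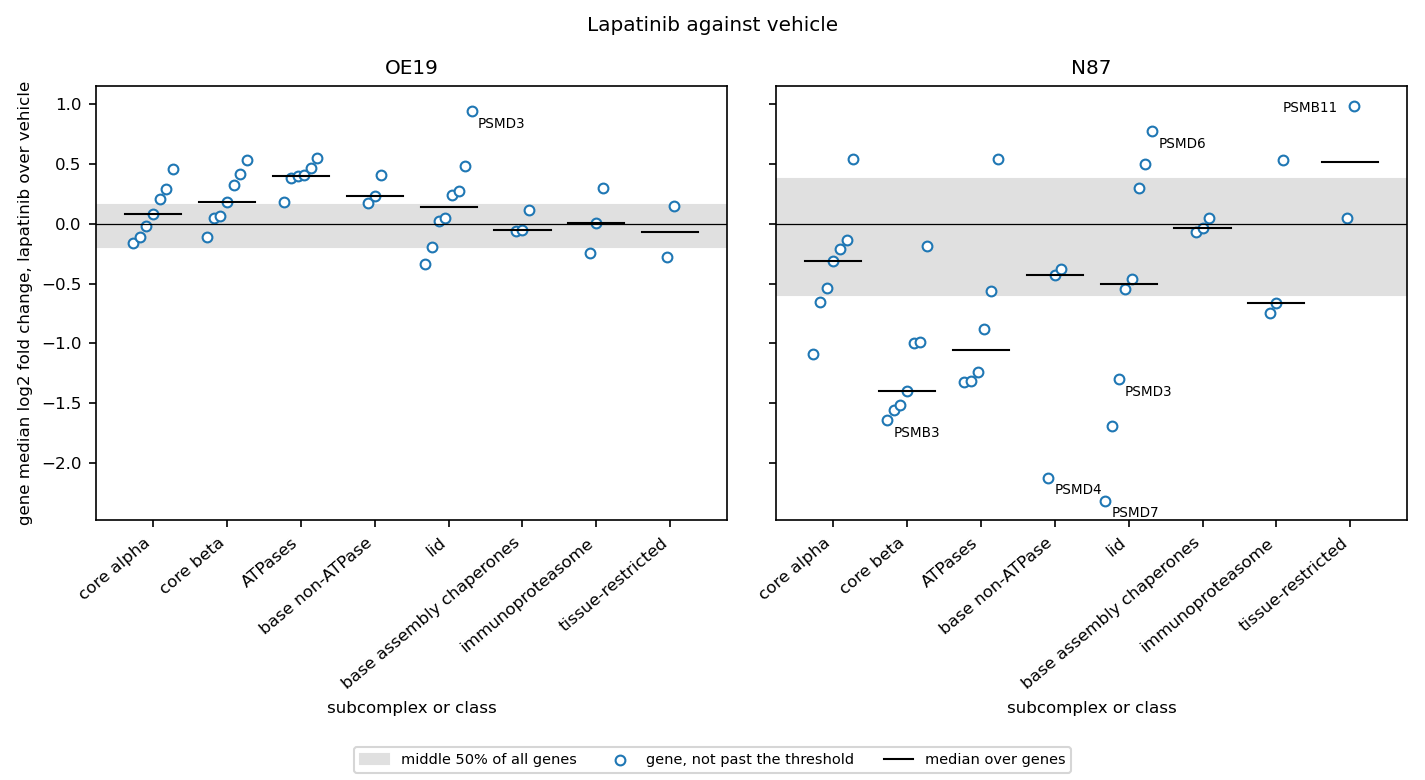
Median log2 fold change over sgRNAs, lapatinib against vehicle, for each of the 39 members by subcomplex, OE19 on the left and N87 on the right. Black bars are medians of a subcomplex and the grey band holds the middle 50% of all genes: in OE19 the ATPases have the highest subcomplex median (0.40), and in N87 core beta has the lowest (-1.40), with no gene called in either line.

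The other genes named above mostly overlapped between lapatinib and vehicle in OE19. PSMB2 had 87.8 and 79.9 with lapatinib, against 70.4 and 81.7 with vehicle, and PSMD14 had 67.2 and 137, against 57.1 and 80.6. PSMB6 had 120.1 and 137 with lapatinib, against 104 and 148 with vehicle, and PSMB7 had 176 and 120.3, against 126 and 139. PSMB8 had 214 and 234 with lapatinib, against 222 and 233 with vehicle, PSMB9 had 132 and 106, against 115 and 119.7, and PSMB10 had 177 and 159, against 170.3 and 125. PSMA7, with 187 and 191 against 182 and 154, was higher with lapatinib, without overlap by these counts. By level it overlapped, at 0.307 and 0.383 with lapatinib against 0.323 and 0.098 with vehicle. PSMA8, with 94.3 and 101 against 107 and 92.5, overlapped.

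Single sgRNAs were called in OE19. Of 231 member sgRNAs tested, 8 were called higher and 0 lower, each for a different gene, where 2.33% of all sgRNAs were called higher. They were sgRNAs of PSMA2, PSMB4, PSMB5, PSMC2, PSMC6 and PSMD1 among the subunit genes, and of PSMB9 and PSMD5 among the other members. The count was 4 with total counts, where 1.396% of all sgRNAs were called higher, and 14 with control guides, where 3.37% were. The PSMC2 sgRNA had 630.3 and 385 normalized counts with lapatinib, against 87.7 and 85.1 with vehicle, 5.82-fold higher (adjusted p = 0.00337). Another sgRNA of PSMC2 was 2.07-fold lower (adjusted p = 0.314).

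The largest folds in OE19 were not called. An sgRNA of PSMB7 had 16182 and 5223 normalized counts with lapatinib, against 293 and 389 with vehicle, 31.3-fold higher (adjusted p = 0.0564). An sgRNA of PSMD14 had 2.58 and 332 with lapatinib, against 2.95 and 7.94 with vehicle, so its 26.1-fold mean increase (adjusted p = 0.0572) came from OE19 lapatinib replicate 2 alone. The largest folds down were 3.76 for an sgRNA of PSMA6 (adjusted p = 0.173), 2.32 for 1 of PSMB2 and 2.07 for the sgRNA of PSMC2 named above.

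In N87 the subunit genes had a median of -0.66 with lapatinib against vehicle, against -0.09 over all genes, and 26 of 31 were below 0, against 55.5% of all genes. Core beta had -1.40, the ATPases -1.06, the lid -0.51, the other base subunits -0.43 and core alpha -0.31. By level, both lapatinib libraries were below both vehicle libraries for 18 of 31 subunit genes, against 41.4% of all genes, and above for 5 of 31, against 37.7% of all genes. The median over subunit genes was -1.08 without N87 lapatinib replicate 2 and -0.43 without N87 vehicle replicate 1. It was -1.16 with total counts, where the median over all genes was -0.62.

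The lowest members in N87 were PSMD7 and PSMD4. PSMD7, the inactive partner of PSMD14 in the lid, had 6.19 and 13.8 normalized counts with lapatinib, against 72.2 and 59.2 with vehicle, and a fold change of -2.31 ± 1.06. PSMD4, a ubiquitin receptor of the base, had 19.8 and 22.8 with lapatinib, against 91.5 and 54.6 with vehicle, and a fold change of -2.12 ± 0.74. In both genes the groups were far apart, 6 of 6 sgRNAs were below 0, and 4 sgRNAs of PSMD7 and 5 of PSMD4 were called lower one by one. The gene test gave an adjusted p of 1 for each. In this comparison 29.9% of all sgRNAs were called lower and 31.2% higher. An sgRNA called one by one can thus lie outside the most extreme 5% that the gene test counts, and such sgRNAs do not enter its p.

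The genes called with vehicle lay on both sides of vehicle when lapatinib was added in N87. PSMB2 had 11.1 and 20.4 normalized counts with lapatinib, against 46.3 and 34.2 with vehicle, and PSMD12 had 24.7 and 31.8, against 43.2 and 33.8, both lower without overlap. PSMD14 had 92.2 and 101 with lapatinib, against 55.6 and 35.0 with vehicle, higher without overlap, and PSMC3 had 66.8 and 94.9, against 95.8 and 90.1, which overlapped. By level the PSMC3 groups did not overlap, by a narrow margin (-1.189 and -0.736 with lapatinib, -0.606 and -0.735 with vehicle). The fold changes of PSMB2, PSMD12, PSMD14 and PSMC3 were -1.40 ± 0.93, -0.47 ± 1.78, 0.50 ± 1.65 and -0.56 ± 1.38, each with an adjusted p of 1.

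Near ERBB2, PSMB3 had 10.5 and 14.4 with lapatinib in N87, against 36.3 and 20.4 with vehicle, lower without overlap (-1.64 ± 2.40). PSMD3 had 11.8 and 43.2 with lapatinib, against 58.3 and 35.9 with vehicle, which overlapped because lapatinib replicate 2 was well above replicate 1 (-1.30 ± 1.70). By level the PSMD3 groups did not overlap, at -3.79 and -2.10 with lapatinib, against -1.31 and -2.02 with vehicle. Of the alpha pair, PSMA7 had 63.1 and 99.1 with lapatinib, against 129.7 and 131 with vehicle, and PSMA8 had 179 and 129.7, against 126 and 120.1. By these counts PSMA7 was lower and PSMA8 higher with lapatinib, neither with overlap, at fold changes of -1.09 ± 1.14 and 0.05 ± 1.86. By level the PSMA8 groups overlapped, at 0.258 and -0.221 with lapatinib, against -0.211 and -0.278 with vehicle.

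The catalytic genes were not called with lapatinib in N87. PSMB5 had 6.80 and 42.0 normalized counts with lapatinib, against 59.5 and 31.3 with vehicle, which overlapped. PSMB7 had 31.5 and 36.0 with lapatinib, against 106 and 72.2 with vehicle, without overlap. PSMB6 had 142 and 153 with lapatinib, against 107 and 88.9 with vehicle, also without overlap and higher by its median count. The fold changes of PSMB5, PSMB7 and PSMB6, as medians over sgRNAs, were -1.56 ± 1.66, -1.51 ± 1.25 and -0.19 ± 1.96, so that for PSMB6 the median count and the median fold change differed in sign.

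Of the immunoproteasome genes, PSMB8 had 433 and 448 with lapatinib in N87, against 229 and 234 with vehicle, PSMB9 had 75.5 and 87.7, against 126 and 121, and PSMB10 had 77.9 and 96.7, against 146 and 143. None overlapped, PSMB8 being higher with lapatinib and the other two lower, in a comparison where 41.4% of all genes were lower and 37.7% higher without overlap. They had fold changes of 0.53 ± 2.05, -0.67 ± 1.05 and -0.75 ± 1.24. The highest member was PSMB11, with 754 and 622 with lapatinib, against 244 and 249.9 with vehicle, and a fold change of 0.98 ± 1.04. No gene of these groups was called, and in OE19 PSMB11 had 185 and 227 with lapatinib, against 241 and 256 with vehicle.

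Guides to one gene went in opposite directions in N87. Of 227 member sgRNAs tested, 71 were called lower and 53 higher (58 and 39 of 180 for subunit genes, 13 and 14 of 47 for the other members), which is 31.3% and 23.3%, against 29.9% and 31.2% of all sgRNAs. The split was 107 and 37 with total counts, against 44.94% lower and 18.97% higher of all sgRNAs, and 93 and 48 with control guides, against 37.6% and 24.5%. For 21 of 31 subunit genes (67.7%) at least 1 sgRNA was called lower and at least 1 higher, against 73.4% of all genes, and the median SD over sgRNAs of one gene was 1.65 for subunit genes and 1.29 for all genes. Of 1999 control guides, 314 were called lower and 731 higher.

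An sgRNA of PSMD2, a scaffold subunit of the base, had 2345 and 1595 normalized counts with lapatinib in N87, against 97.3 and 57.6 with vehicle, 25.1-fold higher (adjusted p = 2.94e-08). The next folds up were 13.9 for an sgRNA of PSMD1 (adjusted p = 2.06e-08) and 10.2 for 1 of PSMA4 (adjusted p = 1.41e-07). The largest folds down were 11.4 for an sgRNA of PSMD12, with 1.24 and 3.60 with lapatinib, against 47.1 and 29.2 with vehicle (adjusted p = 0.0018), 9.83 for 1 of PSMC6 (adjusted p = 0.0102) and 7.94 for 1 of PSMD7 (adjusted p = 0.00102). The median of PSMD2 over its 6 sgRNAs was -0.43 ± 2.64.

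The response to lapatinib was also compared between the lines. The median difference over subunit genes (OE19 minus N87, change from vehicle to lapatinib) was 0.91, against 0.15 over all genes, 1.47 for core beta and 1.30 for the ATPases. No member was called, where 0% of all genes were called lower and 0.0191% higher. At an unadjusted p under 0.05, 3 of 39 members were lower and 3 of 39 higher, against 5.14% and 5.19% of all genes, the lowest adjusted p was 0.890, and DESeq2 p-values gave 0 members. The doses differed between the lines, so line and dose cannot be told apart in this difference.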

How the data were processed

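The authors aligned sgRNA reads to the GeCKO V2 guide library with Bowtie, allowing fewer than 2 mismatches, and deposited raw read counts per sgRNA, with no normalization. The submitters' processing notes name Bowtie2 2.3.2, FastQC 0.11.5 and MAGeCK 0.5.6. MAGeCK was not run here. Reads carried no molecular identifiers.

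Counts were fitted per sgRNA with edgeR 4.0.16 (quasi-likelihood test, TMM factors, R 4.3.3) on the 4 libraries of a comparison, or 8 for a difference between lines, keeping sgRNAs with at least 40 or 80 counts. The ranks of one-sided p-values below 0.05 were combined per gene by robust rank aggregation (genes with at least 2 tested sgRNAs), with Benjamini-Hochberg adjustment over all genes and a threshold of 0.05. The same fit was also run on counts simulated from N87 vehicle against baseline, with the same change given to all sgRNAs of a changed gene. The lapatinib comparisons and genes whose sgRNAs differ were not simulated. Normalized counts used median-of-ratios factors, and folds of single sgRNAs a pseudocount of 1. Alternatives were DESeq2 1.42.0 p-values, other scalings, no filter, ranks below 0.25, means over sgRNAs, a replicate block and leaving out each library.

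Per-library values are given for the called members, catalytic subunits and their counterparts, PSMA7, and members near ERBB2, and for sgRNAs with the 3 largest folds each way. PSMD4, PSMD6, PSMD7, PSMB11 and PSMC2 were picked after their values were seen. Members and gene lists were chosen with earlier results of these data known. With 2 libraries against 2, a 2-sided permutation test cannot go below p = 0.333, so none is given. Gene positions are from GRCh37.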

Additional observations from a re-analysis of the deposited data

How the results depend on the processing

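In N87 vehicle against baseline, the 4 members called lower became 12 with ranks below 0.25, 2 with control-guide TMM factors and 0 to 10 when 1 library was left out. In OE19 the 1 member called became 3 with ranks below 0.25, 0 with DESeq2 p-values and 0 to 1 when 1 library was left out. The replicate block gave 7 members lower in N87, adding PSMB3 (adjusted p = 0.0165), PSMB5 (0.0306) and PSMB6 (0.0242), and changed no other call. The sources used here describe separate infections but do not say whether a number marks the same infection in each condition, and deviations of same-numbered libraries correlated at 0.07 (vehicle and baseline) and 0.03 (lapatinib and vehicle) in OE19 and at 0.238 and 0.06 in N87. The median over subunit genes reversed in OE19 lapatinib against vehicle with total counts (-0.22) and was 0.34 with control guides and 0.19 to 0.30 when 1 library was left out. With total counts it was -1.16 in N87 lapatinib against vehicle, -1.68 in N87 lapatinib against baseline and -0.58 in OE19 lapatinib against baseline. With control guides it was -0.55 in OE19 vehicle against baseline, -1.52 in N87 lapatinib against baseline, -0.0073 for the difference between lines in the change from baseline to vehicle and 1.31 for the difference between lines in the change from vehicle to lapatinib. When 1 library was left out it ranged over -1.57 to -0.90 in N87 lapatinib against baseline and over -1.08 to -0.43 in N87 lapatinib against vehicle. Scalings moved the median of all genes along with these values by construction. The median difference between lines from baseline to vehicle, 0.09, ranged over -0.04 to 0.26 when 1 library was left out, on both sides of 0. It was not called, so a change of sign within the replicate spread is not counted as a reversal here. Of all counts and medians under the alternatives, 266 stayed within the spread between replicates or near the reported count, 21 moved and 1 reversed. For the 5 called genes, 36 values stayed past the threshold and 19 did not, and none changed direction. The counts per library and the spread between 2 libraries limit what these calls show.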
